A study of Mus musculus with 24 samples.

Results

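Lung RNA can hold transcripts of heart muscle, since mouse lung has sheaths of heart-type muscle around its pulmonary veins and atrial tissue can stay attached to a lung when it is removed. The genes described here were 9 that build or serve the contractile apparatus of heart muscle or are secreted by it: Myl4, Myl7, Myh6, Myh7, Csrp3, Actc1, Tnnt2, Nppa and Mb. They were chosen as a list of heart muscle genes, and every probe set that the array annotation gives to one of them alone was taken, which made 13 probe sets of 12488 in the table. Of these 11 were bright enough to be tested. Of all genes with a probe set of their own, 6464 were tested.

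By its title, the study asked how genetic background sets susceptibility to lung fibrosis. Lungs came from 2 inbred mouse strains, C57BL/6J and BALB/c, which had received into the trachea either bleomycin at 1.5 U per kg, a drug that breaks DNA and produces lung fibrosis in mice, or saline alone. Lungs were taken at 24 h, 72 h or 14 d, which gave 12 groups of 2 arrays, called a and b after the letters in the sample titles. The labels name no other genetic change or agent and give neither age nor sex. Whether the 2 arrays of a group came from different mice, and whether mice were pooled, is not stated. The p-values rest on the spread between the 2 arrays of a group, taken over the 12 groups, and this spread may be technical. For BALB/c saline at 72 h the descriptions name bleomycin and for BALB/c saline at 24 h they name bleomycin or saline. The titles were followed in both cases.

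Contraction of heart muscle depends on thick filaments, whose myosin heavy chains carry essential and regulatory light chains, sliding past thin filaments of actin that are switched by the calcium-sensing troponin complex. Atrial muscle uses its own light chains, encoded by Myl4 and Myl7, where ventricular muscle uses the products of Myl3 and Myl2. In mice the muscle sleeve of the pulmonary veins runs from the left atrium far into the lung and has atrial properties.

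The promoters of Myl7, Actc1 and Nppa are shown because each is in a called pair of the array-to-array differences described further on and has one of the motifs searched within 70 bases before its start, a choice made after the matches were seen. Myl4, Myh6 and Mb were in called pairs too, had no match there and are not printed. Each line gives the 200 bases before the annotated start, in the direction of the gene, from RefSeq on GRCm38.p6. Capitals mark a CArG box in Myl7 and Actc1 (the binding site of serum response factor, a regulator of muscle genes), the hexamer CATTCC in Myl7 (the core of the MCAT element) and the hexamer TATAAA in Nppa. The Myl7 stretch is chr11:5898783-5898982 on the minus strand, the Actc1 stretch chr2:114052876-114053075 on the minus strand and the Nppa stretch chr4:148000522-148000721 on the plus strand.
Myl7: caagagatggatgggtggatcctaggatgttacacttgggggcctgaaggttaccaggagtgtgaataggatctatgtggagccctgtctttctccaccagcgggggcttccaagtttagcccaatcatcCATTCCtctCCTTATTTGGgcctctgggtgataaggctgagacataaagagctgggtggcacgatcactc
Actc1: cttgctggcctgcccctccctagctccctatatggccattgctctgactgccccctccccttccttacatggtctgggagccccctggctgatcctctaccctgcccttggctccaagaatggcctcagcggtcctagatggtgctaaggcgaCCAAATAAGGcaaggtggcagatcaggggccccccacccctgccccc
Nppa: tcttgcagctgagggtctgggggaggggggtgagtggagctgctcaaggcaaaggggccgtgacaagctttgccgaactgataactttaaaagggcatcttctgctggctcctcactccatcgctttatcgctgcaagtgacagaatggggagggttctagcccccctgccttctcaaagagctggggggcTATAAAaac

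The CArG box lay 61 to 52 bases before the start of Myl7, next to CATTCC at 70 to 65, and 47 to 38 bases before the start of Actc1. TATAAA lay 9 to 4 bases before the annotated start of Nppa. All 9 genes matched the promoter table, with 14 start sites in all. Searched on both strands in windows of 300 bases (250 before the start and 50 after), a CArG box was present in 1.63% of 32851 mouse promoters, a MEF2 site in 0.557%, TATAAA in 13.6% and CATTCC in 14.7%. The motifs did not overlap each other in the stretches printed. A MEF2 site was found in none of the 14 windows. CATTCC was also found in one window each of Myh6, Myh7 and Tnnt2, and TATAAA after the start in one window each of Myh6 and Actc1. These are matches of letters and no measurement of binding.

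The arrays had median intensities of 313 to 408. H2-Ea, a class II gene that C57BL/6J mice lack in expressed form and BALB/c mice have, stood at 3622 and 4821 in the pair labelled C57BL/6J saline 72 h. In the pair labelled BALB/c saline 72 h it stood at 48.3 and 89.5. Elsewhere it read 25.6 to 166 in C57BL/6J and 2917 to 6068 in BALB/c. These 4 arrays therefore go against their strain labels. They are called the arrays labelled C57BL/6J or BALB/c saline 72 h throughout, and results on the members that rest on them are given with and without them. The lung genes Sftpc (surfactant protein C) and Napsa (an aspartic protease of alveolar type II cells) were checked as tissue markers. Napsa was bright on every array (2636 to 14263), while Sftpc ranged from 5.78 to 78641, with its highest values on both C57BL/6J saline 24 h arrays (78641 and 43230) and on array a of C57BL/6J bleomycin 14 d (14576, against 710 on array b). The titles of these 3 arrays end in s1, s1 and s2a, and all others in s2. What the tags stand for is not stated. The array ending in s2a decides a count at 14 d given below.

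After bleomycin 6 of the 9 heart muscle genes were lower in C57BL/6J than in BALB/c lungs (7.09% of all genes), and Actc1, Nppa and Mb were not called. That comparison was added after the values were seen. Among its 6, Csrp3 passed the filter threshold on no C57BL/6J bleomycin array and was tested only through groups where it is high. Within C57BL/6J, 5 were lower after bleomycin than after saline at 72 h as labelled (2.72% of all genes) and 6 at 14 d (4.61%). Both counts within C57BL/6J depend on few arrays: that at 72 h was 2 with the labels of the 72 h saline arrays exchanged, and that at 14 d 0 without 1 array. The 6 within C57BL/6J at 14 d include Csrp3 and Mb, tested only through groups where they are high. After saline, 0 were called between strains as labelled (0.835% of all genes lower). Lower in C57BL/6J were 3 without the 72 h arrays (4.3%) and 4 with their labels exchanged (4.22%). The strain difference in the bleomycin effect at 72 h called 6 as labelled (1.24%) and 0 in either of those settings (0.464% and 0%). At 14 d it called Myh6 alone (5.52%). No member was called higher in any comparison as labelled, and Nppa was called in none. A gene was called when limma's adjusted p, over all 8710 probe sets tested, was under 0.05. Differences are on the scale of log2(intensity + 91.7), given with their standard error, and the offset understates changes of dim probe sets such as those of Csrp3 and Mb. In bulk lung RNA fewer heart-type muscle cells and less RNA per cell cannot be told apart.

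**Figure D1:**
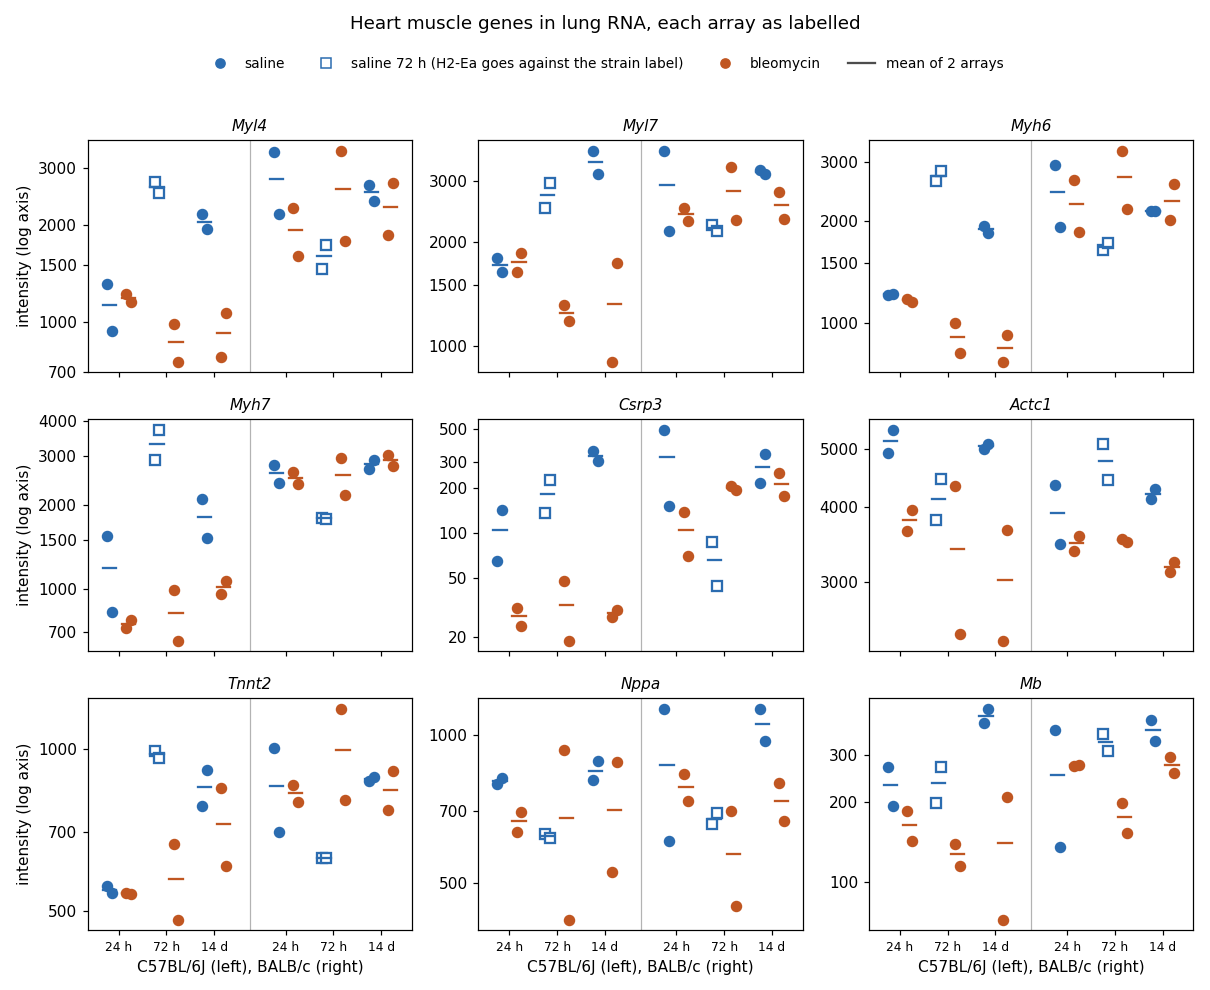
Intensity of each of the 9 heart muscle genes on every array (y axis, log scale) by time (x axis), C57BL/6J left of the grey line and BALB/c right of it, with saline in blue and bleomycin in orange. Points are single arrays, short lines the mean of 2, and open squares the saline arrays of 72 h, whose H2-Ea level goes against their strain label. For Myh6 all 6 C57BL/6J bleomycin arrays lie between 766 and 1176, below all 6 BALB/c bleomycin arrays (1859 to 3242).

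The 2 myosin heavy chains come first. Myh6 encodes alpha myosin heavy chain, the fast motor of atria and of the adult mouse ventricle. After saline in C57BL/6J, Myh6 read 1210 and 1221 at 24 h, 2634 and 2823 on the arrays labelled 72 h, and 1934 and 1852 at 14 d. Bleomycin arrays of that strain read 1176 and 1154 for Myh6 at 24 h, 999 and 813 at 72 h, and 766 and 921 at 14 d. The bleomycin arrays lay below every saline array of the strain, by little at 24 h and by a wide margin at 14 d. BALB/c saline arrays gave Myh6 at 2943 and 1928 at 24 h, 1639 and 1723 as labelled at 72 h, and 2145 and 2142 at 14 d. BALB/c bleomycin arrays gave Myh6 at 2649 and 1859 at 24 h, 3242 and 2172 at 72 h, and 2023 and 2584 at 14 d. In BALB/c the treatments overlapped at 24 h and 14 d, and the arrays labelled saline 72 h were the lowest of that strain. The difference between bleomycin and saline in C57BL/6J was -1.09 ± 0.21 at 14 d (adjusted p = 0.00474) and -1.51 ± 0.21 at 72 h as labelled (adjusted p = 0.000212). With saline of 24 h and 14 d as the control in place of the arrays labelled 72 h, the 72 h difference of Myh6 was -0.70 (adjusted p = 0.0436).

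Myh7 encodes beta myosin heavy chain, the slow motor of the fetal ventricle and of slow skeletal fibres. Its tested probe set is of a kind (suffix _f_at) that can hybridise to related transcripts. Saline arrays of C57BL/6J read 1553 and 829 for Myh7 at 24 h, 2895 and 3733 as labelled at 72 h, and 2109 and 1527 at 14 d. After bleomycin the same strain read 727 and 777 at 24 h, 991 and 652 at 72 h, and 961 and 1068 at 14 d. Every bleomycin array lay below the saline arrays of its own time, although array b of saline 24 h was lower than some bleomycin arrays of other times. For BALB/c after saline, Myh7 was 2795 and 2399 at 24 h, 1805 and 1783 as labelled at 72 h, and 2705 and 2902 at 14 d. For BALB/c after bleomycin, Myh7 was 2624 and 2374 at 24 h, 2947 and 2175 at 72 h, and 3036 and 2754 at 14 d. Apart from the arrays labelled saline 72 h, every BALB/c array (2175 to 3036) was above every C57BL/6J array (652 to 2109) for this gene. Myh7 fell at 72 h in C57BL/6J as labelled by -1.91 ± 0.24 (adjusted p = 6.90e-05), and by -0.76 (adjusted p = 0.0461) with the other saline times as the control. At 14 d the difference was -0.77 ± 0.24 and missed the threshold (adjusted p = 0.0560). A second probe set for Myh7 was too dim to be tested, above the filter threshold of 225.7 on 1 array.

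The atrial light chain genes followed the heavy chains. Myl4, the atrial essential light chain, read 1312 and 938 in C57BL/6J at 24 h after saline, 2703 and 2509 on the arrays labelled 72 h, and 2150 and 1932 at 14 d. After bleomycin in that strain Myl4 was 1218 and 1149 at 24 h, 983 and 752 at 72 h, and 777 and 1068 at 14 d. At 72 h and 14 d the treatments did not overlap, and at 24 h they did. BALB/c arrays gave Myl4 at 3363 and 2161 (saline 24 h), 1458 and 1733 (labelled saline 72 h), 2659 and 2369 (saline 14 d), 2252 and 1602 (bleomycin 24 h), 3385 and 1784 (bleomycin 72 h), and 1852 and 2681 (bleomycin 14 d). In C57BL/6J Myl4 fell at 14 d by -1.09 ± 0.27 (adjusted p = 0.0228) and at 72 h as labelled by -1.50 ± 0.27 (adjusted p = 0.00258). Its 72 h difference was -0.75 (adjusted p = 0.0908) with the other saline times as the control. The second Myl4 probe set (407 to 1360 over all arrays) was not called in C57BL/6J, with differences of -0.45 ± 0.26 at 72 h and -0.51 ± 0.26 at 14 d, so the call for this gene rests on the brighter probe set.

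Myl7 encodes the atrial regulatory light chain and is among the most atrium-restricted contractile genes. C57BL/6J saline arrays gave Myl7 at 1794 and 1636 at 24 h, 2505 and 2954 as labelled at 72 h, and 3653 and 3124 at 14 d. C57BL/6J bleomycin arrays gave Myl7 at 1639 and 1854 at 24 h, 1318 and 1180 at 72 h, and 903 and 1742 at 14 d. The saline arrays of 24 h were as low as bleomycin arrays of the same time, and array a of bleomycin 14 d was the lowest of all. BALB/c arrays read 3657 and 2151 (saline 24 h), 2238 and 2151 (labelled saline 72 h), 3214 and 3141 (saline 14 d), 2509 and 2297 (bleomycin 24 h), 3278 and 2306 (bleomycin 72 h), and 2776 and 2324 (bleomycin 14 d) for Myl7. The difference in C57BL/6J was -1.36 ± 0.25 at 14 d (adjusted p = 0.00377) and -1.07 ± 0.25 at 72 h as labelled (adjusted p = 0.0145). At 72 h it was -0.90 (adjusted p = 0.0308) with the other saline times as the control.

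Csrp3 encodes muscle LIM protein, a stretch-sensing protein of the Z disc, where thin filaments of neighbouring sarcomeres are anchored. Its probe set was dim and passed the filter threshold on 6 arrays, 5 of saline and 1 of BALB/c bleomycin. It was thus tested only through groups where it is high, and its log2 differences against C57BL/6J bleomycin rest on values far below the threshold. In C57BL/6J Csrp3 read 64.6 and 143 (saline 24 h), 137 and 229 (labelled saline 72 h), 357 and 304 (saline 14 d), 31.1 and 23.6 (bleomycin 24 h), 47.0 and 18.7 (bleomycin 72 h), and 26.9 and 30.3 (bleomycin 14 d). All 6 bleomycin arrays of that strain lay below all 6 saline arrays. In BALB/c Csrp3 read 497 and 151 (saline 24 h), 87.2 and 43.9 (labelled saline 72 h), 218 and 338 (saline 14 d), 139 and 69.7 (bleomycin 24 h), 207 and 194 (bleomycin 72 h), and 252 and 177 (bleomycin 14 d). On this scale the Csrp3 difference in C57BL/6J was -1.81 ± 0.35 at 14 d (adjusted p = 0.00486), and at 72 h as labelled the difference of -1.13 ± 0.35 missed the threshold (adjusted p = 0.0612). With the other saline times as the control it was -1.20 at 72 h (adjusted p = 0.0308).

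The thin filament genes were Actc1 and Tnnt2. Actc1, cardiac alpha actin, read 4924 and 5386 (saline 24 h), 3809 and 4452 (labelled saline 72 h), 5003 and 5095 (saline 14 d), 3651 and 3961 (bleomycin 24 h), 4344 and 2460 (bleomycin 72 h), and 2394 and 3660 (bleomycin 14 d) in C57BL/6J, on a probe set that can also hybridise to related actins. BALB/c arrays ranged from 3472 to 5095 after saline, those labelled 72 h included, and from 3114 to 3586 after bleomycin. Actc1 fell at 14 d in C57BL/6J by -0.75 ± 0.22 (adjusted p = 0.0418), and its second probe set by -1.14 ± 0.29 (adjusted p = 0.0228). Tnnt2, the troponin T that ties the troponin complex to tropomyosin in heart muscle, read 557 and 540 (saline 24 h), 991 and 960 (labelled saline 72 h), 784 and 912 (saline 14 d), 541 and 539 (bleomycin 24 h), 666 and 483 (bleomycin 72 h), and 846 and 606 (bleomycin 14 d) in C57BL/6J. The 14 d treatments overlapped for Tnnt2. It was called lower at 72 h in C57BL/6J as labelled (-0.69 ± 0.20, adjusted p = 0.0405), and with the other saline times as the control the difference was -0.23 (adjusted p = 0.490). BALB/c arrays ranged from 627 to 1004 for Tnnt2 after saline, with 627 and 627 on the arrays labelled 72 h, and from 769 to 1186 after bleomycin.

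Nppa and Mb serve the muscle without being part of its filaments. Nppa encodes atrial natriuretic peptide, a hormone that atrial muscle releases on stretch. In C57BL/6J Nppa read 798 and 818 (saline 24 h), 629 and 617 (labelled saline 72 h), 811 and 885 (saline 14 d), 637 and 699 (bleomycin 24 h), 935 and 421 (bleomycin 72 h), and 527 and 881 (bleomycin 14 d). The 2 arrays of bleomycin 72 h thus differed widely, and bleomycin and saline overlapped at 72 h and 14 d. BALB/c arrays ranged from 609 to 1134 for Nppa after saline and from 449 to 836 after bleomycin. Mb encodes myoglobin, the oxygen store of heart and slow skeletal muscle. It read 272 and 193 (saline 24 h), 199 and 272 (labelled saline 72 h), 395 and 450 (saline 14 d), 185 and 143 (bleomycin 24 h), 140 and 115 (bleomycin 72 h), and 72.2 and 210 (bleomycin 14 d) in C57BL/6J. Mb fell at 14 d in that strain by -1.21 ± 0.30 (adjusted p = 0.0198), with no overlap at that time. It too passed the filter threshold on no C57BL/6J bleomycin array. BALB/c arrays ranged from 135 to 406 for Mb after saline and from 153 to 295 after bleomycin. A second Mb probe set was dim on every array (3.47 to 102).

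Counted over the 9 genes, 6 were called lower after bleomycin at 14 d in C57BL/6J (Myl4, Myl7, Myh6, Csrp3, Actc1 and Mb), against 4.61% of all genes tested. The median difference over the 9 was -1.09 beside -0.07 over all genes. Csrp3 and Mb passed the filter threshold on no C57BL/6J bleomycin array and were tested only through groups where they are high. At 72 h as labelled 5 were called lower in C57BL/6J (Myl4, Myl7, Myh6, Myh7 and Tnnt2), against 2.72% of all genes. Without the 4 saline arrays of 72 h, 4 were called at that time (Myl7, Myh6, Myh7 and Csrp3; 2.94% of all genes), and with their strain labels exchanged 2 (Myh6 and Myh7; 1.02%). At 24 h limma called 0 of 9 in C57BL/6J (1.02% of all genes were called lower), and 1 had an unadjusted p under 0.05. Both saline arrays of that comparison, and no other array, carry the tag s1, so tag and group cannot be told apart there. The same 2 arrays are part of every C57BL/6J saline control that combines times, and of the strain comparison after saline. The 14 d count fell to 0 without array a of C57BL/6J bleomycin 14 d, the array whose title ends in s2a. Without it the differences were -0.88 for Myl4, -0.92 for Myl7, -0.97 for Myh6, -1.79 for Csrp3, -0.45 for Actc1 and -0.77 for Mb. Their adjusted p, in that order, was 0.241, 0.0914, 0.0818, 0.0644, 0.423 and 0.304. For each of the 6 that array was the lower of its pair, and the count without array b was 6. The count at 14 d was 3 without either saline array of that time, and the count at 72 h as labelled was 3 without either bleomycin array of that time or without array b labelled saline 72 h.

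In BALB/c limma called 0 of 9 at 24 h, 72 h and 14 d, where 0.0619%, 0.681% and 4.59% of all genes were called lower. At an unadjusted p under 0.05, 1 of 9 was lower at 24 h, 4 higher and 1 lower at 72 h as labelled, and 0 at 14 d. The 4 at 72 h were Myl4, Myh6, Csrp3 and Tnnt2, with differences of 0.60 ± 0.27, 0.63 ± 0.21, 0.91 ± 0.35 and 0.57 ± 0.20. With the other saline times as the control these differences were -0.08, 0.22, -0.35 and 0.17. Myl4 and Csrp3 then changed sign, and Myh6 and Tnnt2 were smaller.

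**Figure D2:**
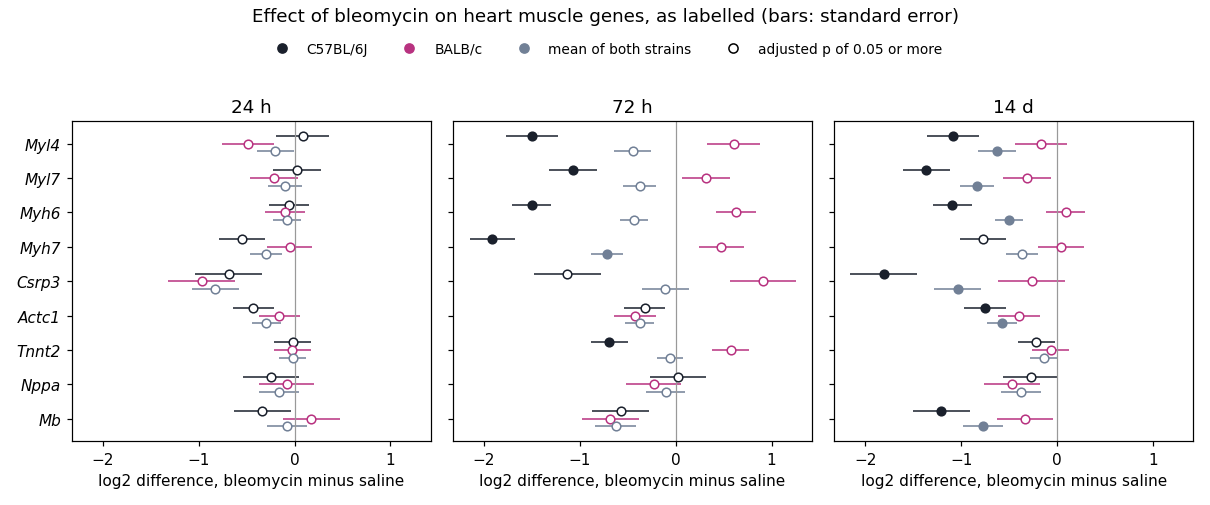
Log2 difference between bleomycin and saline (x axis) with its standard error for each gene at 24 h, 72 h and 14 d, in C57BL/6J (black), BALB/c (magenta) and the mean of both (grey), with groups as labelled. Filled points have an adjusted p under 0.05; at 14 d there are 6 filled points in C57BL/6J, 6 in the mean of both strains and 0 in BALB/c.

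Averaged over both strains, 0 of 9 genes were called at 24 h by limma (1 at an unadjusted p under 0.05; 1.14% of all genes called lower), 1 at 72 h (0.882%) and 6 at 14 d (4.81%). The gene at 72 h was Myh7 (-0.72 ± 0.17, adjusted p = 0.0236). Without the 4 saline arrays of that time Csrp3 (-0.77) and Mb (-0.72) were called instead, and the share of all genes is not given here. Both passed the filter threshold on no C57BL/6J bleomycin array and were tested only through groups where they are high. The Myh7 call was thus lost without those 4 arrays. It was also lost, with a count of 0, without any of 5 single arrays: array b of BALB/c bleomycin 72 h, either array labelled BALB/c saline 72 h, array b of C57BL/6J bleomycin 72 h or array b labelled C57BL/6J saline 72 h. At 14 d the called genes were the 6 called in C57BL/6J, from -0.50 ± 0.15 for Myh6 to -1.04 ± 0.24 for Csrp3. Csrp3 and Mb are among these 6, with the limit just given. Leaving out single arrays took this count down to between 1 and 3 in 5 cases: 1 without array b of BALB/c saline 14 d, 2 without array a of that group, array a of C57BL/6J bleomycin 14 d or array b of C57BL/6J saline 14 d, and 3 without array b of BALB/c bleomycin 14 d.

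The difference between strains in the bleomycin effect was tested directly. At 24 h 0 of 9 genes were called by limma, 0 had an unadjusted p under 0.05 and 0% of all genes were called lower. At 14 d, Myh6 alone was called (-1.18 ± 0.29, adjusted p = 0.0272; 5.52% of all genes called lower), and 5 of 9 were lower at an unadjusted p under 0.05. The Myh6 call at 14 d was lost without any of 6 single arrays: either BALB/c saline 14 d array, array b of BALB/c bleomycin 14 d, either C57BL/6J saline 14 d array, or array a of C57BL/6J bleomycin 14 d. At 72 h as labelled 6 were called (1.24% of all genes), from -1.27 ± 0.28 for Tnnt2 to -2.39 ± 0.34 for Myh7, but the control of both strains there is the pair of groups that go against their labels. Without these arrays 0 were called (0.464% of all genes) and with their labels exchanged 0 (0%), with Myh6 at -0.92 (adjusted p = 0.123) and -0.80 (adjusted p = 0.663).

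Comparison of the strains needs no saline control. After saline as labelled 0 of 9 genes differed by limma (1 at an unadjusted p under 0.05; 0.835% of all genes called lower). Without the arrays of 72 h, 3 were lower in C57BL/6J, namely Myl4 (-0.75), Myh6 (-0.55) and Myh7 (-0.87), against 4.3% of all genes. With the labels of those arrays exchanged 4 were lower, the same 3 (-0.73, -0.59 and -0.86) and Tnnt2 (-0.39), against 4.22%. Over the bleomycin arrays, none of which goes against its label by H2-Ea, 6 of 9 were lower in C57BL/6J, against 7.09% of all genes. This comparison was added after the values were seen. Its 6 genes include Csrp3, which was tested only through groups where it is high.

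After bleomycin both myosin heavy chains differed between strains. Myh7 ran from 652 to 1068 (median 869) in the 6 C57BL/6J arrays and from 2175 to 3036 (median 2689) in the 6 BALB/c arrays, a difference of -1.53 ± 0.14 (adjusted p = 6.72e-07). Myh6 had medians of 960 and 2378 and a difference of -1.23 ± 0.12 (adjusted p = 1.98e-06). On the tested probe sets the strains overlapped for neither gene at any time. That of Myh7 can hybridise to related transcripts. The second Myh7 probe set, too dim to be tested, overlapped (40.3 to 64.3 against 52.6 to 285). The share of all genes without overlap was not counted. Myl4 ran from 752 to 1218 against 1602 to 3385 (-1.09 ± 0.16, while its second probe set overlapped, 407 to 972 against 598 to 1282), Myl7 from 903 to 1854 against 2297 to 3278 (-0.83 ± 0.14) and Csrp3 from 18.7 to 47.0 against 69.7 to 252 (-1.09 ± 0.20), also without overlap. Tnnt2 overlapped (483 to 846 against 769 to 1186) and was called (-0.48 ± 0.11, adjusted p = 0.0106). Actc1 (-0.02 ± 0.12) and Nppa (-0.05 ± 0.17) gave no call, and Mb had an adjusted p of 0.0599 (-0.51 ± 0.17). The count stayed at 6 or 7 without any single array. A strain difference in probe hybridisation, from a sequence difference between the strains, was not tested.

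The 4 saline arrays of 72 h were also set against the other arrays of each strain. Apart from them, Myh6 lay at 766 to 1934 on C57BL/6J arrays and at 1859 to 3242 on BALB/c arrays. The arrays labelled C57BL/6J saline 72 h (2634 and 2823) fell within the BALB/c range alone, and those labelled BALB/c saline 72 h (1639 and 1723) within the C57BL/6J range alone. Myh7 did the same on the BALB/c-labelled arrays (1805 and 1783, against 2175 to 3036 on the other BALB/c arrays) and exceeded every other C57BL/6J array on the C57BL/6J-labelled ones (2895 and 3733).

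Whether the 9 genes move together on single arrays was judged from the difference between arrays a and b of each group, which holds no strain, treatment or time effect. In 3 groups all 9 genes were higher on array a: BALB/c saline 24 h (median difference 0.62, up to 1.28 for Csrp3), BALB/c bleomycin 72 h (median 0.49, up to 0.89 for Myl4) and C57BL/6J bleomycin 72 h (median 0.35, widest for Nppa). In C57BL/6J bleomycin 14 d, 8 of 9 were higher on array b, with Myl7 at -0.88 and Tnnt2 opposed at 0.43. The lung genes ran the other way in that pair: Napsa read 13924 on array a and 4464 on array b, and the 10 lung genes had mean log2 values of 11.74 and 10.49. In the 3 groups with all 9 members higher on array a, the lung means on a and b were 10.71 and 11.26, 11.12 and 11.35, and 10.96 and 10.83, in the order above. Over the 12 groups, r of the lung gene differences with the mean of the members ran from -0.56 for Ager to 0.37 for Pecam1. Between lay Sftpb (-0.50), Napsa (-0.47), Scgb1a1 (-0.34), Sftpc (-0.30), Cdh5 (-0.24), Pdpn (-0.13), Sftpd (-0.08) and Kdr (0.13). The part of the lung genes in the differences of the members was not tested. Over all 6464 genes the median difference in these 4 groups lay between -0.09 and 0.03. In BALB/c bleomycin 24 h 7 genes were higher on array a, in C57BL/6J saline 72 h 6 were higher on array b, and in the other 6 groups the genes split 5 against 4.

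**Figure D3:**
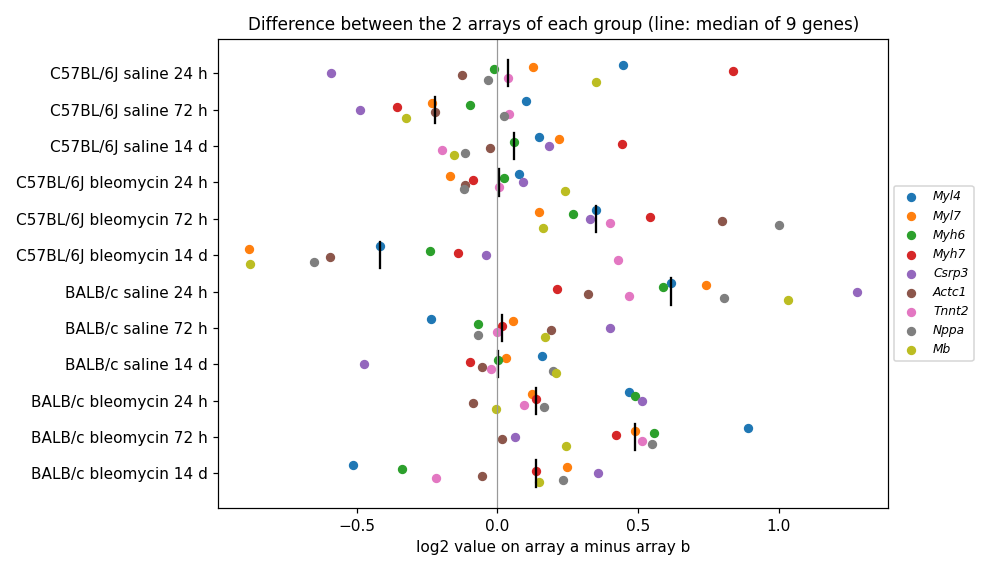
Log2 value on array a minus array b (x axis) for each of the 9 genes (coloured points) in each of the 12 groups (rows), with a black line at the median of the 9. All points lie right of 0 in BALB/c saline 24 h, BALB/c bleomycin 72 h and C57BL/6J bleomycin 72 h, and 8 of 9 lie left of it in C57BL/6J bleomycin 14 d.

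Over the 12 groups all 36 pairs of members had a positive Pearson correlation of these differences, from 0.07 for Myl7 with Tnnt2 to 0.89 for Myl4 with Myh6, with a median of 0.495. Over the pairs of all 6464 genes the median was 0.01 and 51.4% were above 0, and 8.86% of those pairs reached 0.495 or more. By a permutation test with 100000 resamples, adjusted over the 36 pairs, 4 pairs were called. They were Myl4 with Myh6 (r = 0.893, rho = 0.867, p = 0.000120, adjusted p = 0.00432), Actc1 with Nppa (r = 0.860, rho = 0.657, p = 0.000730, adjusted p = 0.0131), Myl7 with Mb (r = 0.860, rho = 0.503, p = 0.00251, adjusted p = 0.0301) and Myl7 with Nppa (r = 0.768, rho = 0.671, p = 0.00517, adjusted p = 0.0465). The permutation p of rho, in the same order, was 0.000530, 0.0234, 0.0998 and 0.0207. Without the 2 groups farthest from the median of the first gene, r was 0.819, 0.587, 0.346 and 0.447, so the last 2 relations rest largely on those groups. Another 8 pairs had an unadjusted p under 0.05, which makes 12 in all.

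The order of a and b is arbitrary, so the correlation was also taken around 0, as a pooled correlation within groups, after the values were seen. All 36 pairs were again positive (0.15 to 0.90, median 0.536, against 0.01 over all gene pairs, of which 5.93% reached that median). An exact test over all sign changes of one gene called 0 of 36 pairs after adjustment, with 10 at an unadjusted p under 0.05. The lowest p by that test was 0.00146 for Myl7 with Myh7 (pooled r = 0.535, adjusted p = 0.0527). Tnnt2 stood furthest from the others in the differences, with a median r of 0.26 over its 8 pairs, and Nppa and Myl7 nearest, at 0.63 and 0.62.

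**Figure D4:**
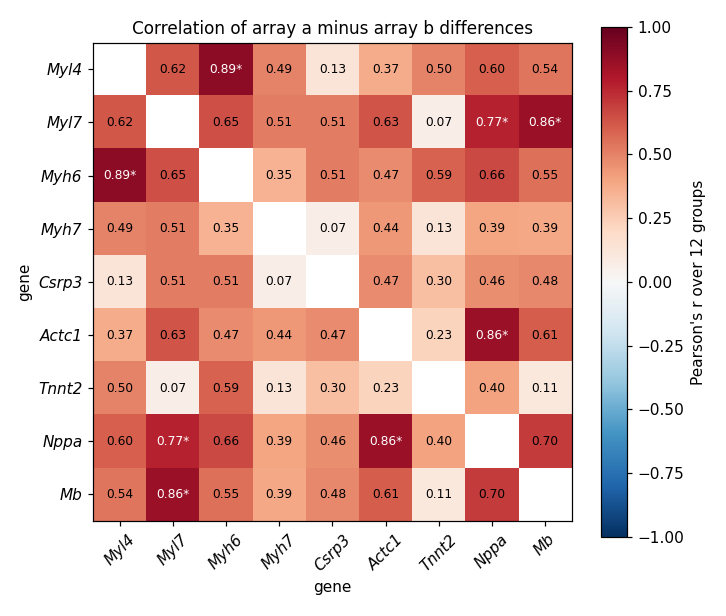
Pearson's r of the array a minus array b differences over 12 groups for each pair of the 9 genes (rows and columns, colour scale from -1 to 1), with an asterisk where the permutation p adjusted over 36 pairs is under 0.05. All 36 pairs are positive and 4 carry an asterisk.

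Of the 6 genes in called pairs, Myl4, Myh6 and Myl7 were also called between strains after bleomycin (-1.09, -1.23 and -0.83), while Actc1 (-0.02), Nppa (-0.05) and Mb (-0.51) were not. Myh7, Csrp3 and Tnnt2 were called between strains and were in no called pair.

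Other genes of heart muscle were taken from lists of the same tissue. Among 23 genes of the contractile apparatus and Z disc outside the members, 15 were on the array and 11 were tested. At 14 d in C57BL/6J, where 4.61% of all genes were called lower and 3.12% higher, 1 was called higher and 1 lower of the 11, with a median difference of -0.18. The one lower was Tnni3, cardiac troponin I, at -1.08 ± 0.21 (adjusted p = 0.00496), and the one higher Ankrd1, a stretch-induced repressor of muscle genes that other injured tissues express too, at 0.85 ± 0.23. At 72 h as labelled Tnni3 (-0.98 ± 0.21) and Tnnc1 (-1.24 ± 0.22), the calcium-binding troponin C of heart and slow muscle, were lower. In BALB/c Tnnc1 was lower at 14 d (-0.78 ± 0.22) and Ankrd1 higher at 72 h as labelled (1.27 ± 0.23; 0.557% of all genes called higher). Without the 4 saline arrays of 72 h, the 72 h differences were -0.62 for Tnni3 (adjusted p = 0.0603) and -0.50 for Tnnc1 (adjusted p = 0.149) in C57BL/6J and 0.14 for Ankrd1 in BALB/c (adjusted p = 0.735), so these 3 calls were lost. Of the 11 genes, 2 were then called higher in C57BL/6J (3.02% of all genes), Ankrd1 (0.92 ± 0.21) and Cryab (0.76 ± 0.16), a small heat shock protein of muscle and other tissues. The ventricular light chain genes Myl2 (8.31 to 56.7) and Myl3 (3.66 to 115), and Actn2 of the Z disc (19.8 to 59.3), passed the filter threshold on no array.

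Of 18 calcium and ion handling genes, 10 were tested. At 14 d in C57BL/6J 2 were lower (4.61% of all genes): Atp2a2, the calcium pump of the sarcoplasmic reticulum (-1.18 ± 0.21), and Cacna1c, the L-type calcium channel (-0.55 ± 0.15). In BALB/c at 14 d 2 others were lower (4.59% of all genes), Casq1 (-1.01 ± 0.15), a calcium store protein of skeletal muscle, and Gja1 (-0.64 ± 0.18), a gap junction protein made in many lung cells. The 18 energy supply genes had 14 tested, of which 5 were lower (4.61% of all genes) and 3 higher (3.12%) at 14 d in C57BL/6J. The 4 with the smallest p were Cox6a2, a muscle subunit of cytochrome oxidase (-1.27 ± 0.20), Eno3, muscle enolase (-0.78 ± 0.15), Pygm, muscle glycogen phosphorylase (-0.82 ± 0.16), and Adssl1, an enzyme of AMP synthesis in muscle, which was higher (0.98 ± 0.17).

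Ckmt2 and Tnni3 were also the genes outside the members whose log2 values followed the mean standardised level of the 9 most closely over all 24 arrays, with r = 0.902 and 0.898. Ckmt2, mitochondrial creatine kinase of sarcomeric muscle, was lower at 14 d in C57BL/6J by -1.37 ± 0.30. Its probe set passed the filter threshold on 11 arrays, none of them C57BL/6J bleomycin (13.9 to 144). Like Csrp3 it was thus tested only through groups where it is high. Tnni3 ranged from 474 to 863 on C57BL/6J bleomycin and saline 24 h arrays and from 839 to 1446 on all others. Next came Tek, an endothelial receptor, at 0.837, and Rmnd5a, Fgfr2, Cftr, Tsen15, Emb, Trbv1 and Prdm1 down to 0.806. In the 12 array-to-array differences the closest genes were others, led by Rusc1 at 0.927 and Prpf4b at 0.870, and none of the closest 10 there was in a muscle list. These are correlations over arrays that share strain, treatment and time effects or over 12 differences, and are given as a description.

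Genes of other muscle and neighbouring tissues were set beside them. Of 23 skeletal muscle genes 13 were tested and 0 were called by limma at 14 d in C57BL/6J (0.00 median difference). At that time 4.61% of all genes were called lower and 3.12% higher in that strain. Of the 13, 2 were called lower in BALB/c at 14 d (4.59% of all genes) and 1 in C57BL/6J at 72 h as labelled (2.72%). Myh1, Myh2 and Myh3, myosins of fast and developing skeletal fibres, passed the threshold on no array. Others of the list, among them Myod1 (413 to 904) and Pvalb (865 to 3433), passed it on all 24. Of 10 smooth muscle genes tested, Tagln was higher (0.75 ± 0.22) and Cnn1 lower (-0.74 ± 0.21) at 14 d in C57BL/6J. Of 4 tested genes of fat and 4 of thymus, tissues that can stay attached to a lung with the heart base, 0 were called at 14 d in C57BL/6J, with medians of -0.03 and -0.39. The 10 tested lung genes gave a mean log2 value at 14 d in C57BL/6J of 11.74 and 10.49 after bleomycin and 10.59 and 9.52 after saline, and in BALB/c of 9.89 and 9.20 after bleomycin and 11.17 and 11.03 after saline. Of the 10, limma called 0 in C57BL/6J (by unadjusted p under 0.05, 4 were higher and 1 lower) and 3 lower in BALB/c (4.59% of all genes) at that time. The part of this in the heart muscle values was not tested. Of 7 tested heart hormone and heart transcription factor genes 0 were called at 14 d in C57BL/6J and 2 were lower in BALB/c (4.59% of all genes). Nkx2-5 (28.5 to 72.0), Bmp10, Corin and Hand2 passed the threshold on no array. Others of that list, among them Gata4 (458 to 1083), Gata6 (534 to 1173) and Mef2a, passed it on all 24. Heart carried over at dissection and muscle of the pulmonary veins cannot be told apart by these genes, and how much of either each lung held was not tested.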

How the data were processed

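Total RNA from mouse lung was measured on 24 Affymetrix murine arrays, 2 in each of 12 groups taken from the sample titles. The authors deposited intensities on a linear scale for each probe set. The sources used here do not give the algorithm that made them. Each array's mean, trimmed at percentiles 2 and 98, was 799.9, so no further normalization was applied. After leaving out 66 control probe sets, limma 3.58.1 (R 4.3.3) was run on log2(intensity + 91.7), with a mean for each of 12 groups, a variance trend and 12 residual degrees of freedom. The two-sided tests took in the 8710 probe sets above 225.7 (percentile 40) on 2 or more arrays, with Benjamini-Hochberg adjustment over them. The offset is the median of the arrays' lower quartiles. One probe set stood for each gene, the brightest with 1 name. The fit was tested on simulated data. All 9 members are named, and from the other lists up to 4 called genes per comparison with the smallest p, along with the 10 genes most like the members. The members, lists and comparisons were chosen with earlier results of these data known. The number of arrays limits the precision.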

Additional observations from a re-analysis of the deposited data

Results flagged for a closer look

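The strains differed in the bleomycin effect, by the test of that difference in limma, for 6 of the 9 heart muscle genes at 72 h as labelled and for Myh6 at 14 d. At 72 h the differences (C57BL/6J effect minus BALB/c effect, log2) were -2.10 for Myl4, -1.39 for Myl7, -2.14 for Myh6, -2.39 for Myh7, -2.04 for Csrp3 and -1.27 for Tnnt2. All 6 rest on the saline arrays of 72 h that go against their strain labels, and 0 of the 6 was called without those arrays or with their labels exchanged. At 14 d the difference for Myh6 was -1.18, from C57BL/6J arrays of 1934 and 1852 after saline and 766 and 921 after bleomycin, against BALB/c arrays of 2145 and 2142 after saline and 2023 and 2584 after bleomycin.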

How the results depend on the processing

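With 2 arrays a group, the calls depend on single arrays. Leaving out one array at a time, the number of members called ranged from 0 to 1 in C57BL/6J at 24 h, 3 to 6 at 72 h and 0 to 7 at 14 d; from 0 to 1 in BALB/c at 24 h; from 0 to 1, 0 to 2 and 1 to 6 in the mean of both strains at 24 h, 72 h and 14 d; and, for the strain difference in the effect, from 3 to 6 at 72 h and 0 to 2 at 14 d. Without the saline arrays of 72 h the mean of both strains at 72 h called 2, the strain difference at 72 h 0 and the strains after saline 3. With their labels exchanged C57BL/6J at 72 h called 2, the strain difference at 72 h 0 and the strains after saline 4. Saline was also pooled over times within each strain as labelled, so each control held 72 h arrays that go against their labels. With it C57BL/6J at 24 h called 3, and the mean of both strains 2 at 24 h and 3 at 72 h. The strain difference then called 1, 2 and 2 at 24 h, 72 h and 14 d. The share of all genes under that control is not given here, so these counts are no result on the members. That control could not be used for the 2 comparisons between strains. The array letter as a replicate block changed no count (5 in C57BL/6J at 72 h and 6 at 14 d). Whether the letters pair the samples is not stated. Over 6 bleomycin and saline pairs of groups of the same strain and time, the a minus b profiles correlated at -0.07 to 0.31, over 0.1 in 3. Over all 66 pairs of groups they correlated at -0.28 to 0.31, over 0.1 in 14. For pairs of members, 2 were called without both saline groups of 72 h (Myl4 with Myh6, Actc1 with Nppa), 1 by ranks (Myl4 with Myh6) and 0 by the pooled correlation within groups. Among single genes, 1800 of the alternative values kept their side of the threshold and direction, 134 lost and 24 gained a call, and 0 reversed.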
